A study of Mus musculus with 6 samples.

Results

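Neutrophils are short-lived white blood cells that are made in the bone marrow and enter the liver from the blood. The 8 genes described here, S100a8, S100a9, Mmp8, Mmp9, Fpr1, Csf3r, Ngp and Hdc, were taken by symbol from a table of 23224 genes measured in whole mouse liver, and all 8 had a row. The study set mice with a germline loss of PKM2, the M2 form of pyruvate kinase (PKM2 KO), beside wild-type mice (WT), all 35 weeks of age, with 3 independent mice per genotype. All 6 mice were labelled as a mix of C57BL/6J and 129SvJ and received no treatment. RNA came from frozen liver that was ground whole, so every cell type of the organ, and blood left in it, could contribute. The sources used here give no sex, litter or batch, and do not say whether a piece of liver held a tumour.

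A neutrophil passes through stages that make different products. In the marrow, promyelocytes make the proteases of the primary granules, and later precursors make the secondary granule proteins. Mature cells in blood and tissue have stopped making most of these and instead express receptors for chemokines, for formylated peptides and for the growth factor G-CSF, together with large amounts of S100a8 and S100a9. These encode small calcium-binding proteins that pair as calprotectin, which binds metal ions and, when released, the receptor TLR4.

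The libraries held between 27727048 and 36125711 counts. Levels are given as CPM, counts scaled to a library of 1000000 with the TMM method, and 1 count corresponded to between 0.0271 and 0.0357 CPM. A floor of 3 counts per library corresponded to between 0.0812 and 0.107 CPM and covers counting error only. Together the 8 genes took 195, 171 and 196 counts in the knockouts (livers 1 to 3) and 221, 621 and 395 among the wild types (livers 1 to 3). As a check of the labels, the row of the targeted gene (Pkm2, both splice forms together) ran from 6.31 to 9.65 CPM in PKM2 KO and from 15.9 to 26.6 CPM in WT. Alb, a hepatocyte gene for serum albumin, ranged over 45600 to 82600 CPM. WT 1 and WT 2 stood apart by their pancreatic enzyme transcripts, with summed levels of 16 acinar cell markers of 3499 and 10160 CPM against 34.88 to 64.8 CPM in the other 4 livers. The 6 tested neutrophil genes are therefore also given with WT livers left out, as are list medians and genes that moved far without a liver.

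S100a8 and S100a9 lie next to each other on chromosome 3 in the RefSeq gene order and are read from opposite strands. The 250 bases before the RefSeq start of each are shown because these had the largest fold changes among the tested genes of the set. The stretch before Mmp8 is shown because its counts were also concentrated in WT 2. They come from RefSeq on GRCm38.p6, a later build than the mm9 named for the counts, at chr3:90668821-90669070 (plus strand) for S100a8, chr3:90695722-90695971 (minus strand) for S100a9 and chr9:7558179-7558428 (plus strand) for Mmp8. Capitals mark the letters TATAAA, the TATA box, and TTNNGNAA, a loose form of the site bound by C/EBP factors, which drive myeloid genes. Both were searched on both strands.
S100a8: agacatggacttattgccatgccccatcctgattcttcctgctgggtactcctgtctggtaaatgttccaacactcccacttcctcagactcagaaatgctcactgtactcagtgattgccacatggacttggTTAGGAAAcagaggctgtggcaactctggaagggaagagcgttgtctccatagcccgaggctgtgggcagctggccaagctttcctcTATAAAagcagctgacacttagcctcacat
S100a9: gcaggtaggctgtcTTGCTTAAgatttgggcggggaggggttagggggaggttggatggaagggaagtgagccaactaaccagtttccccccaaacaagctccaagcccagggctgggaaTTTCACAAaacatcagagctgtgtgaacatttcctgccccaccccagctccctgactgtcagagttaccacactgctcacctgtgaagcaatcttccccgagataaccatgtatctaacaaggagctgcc
Mmp8: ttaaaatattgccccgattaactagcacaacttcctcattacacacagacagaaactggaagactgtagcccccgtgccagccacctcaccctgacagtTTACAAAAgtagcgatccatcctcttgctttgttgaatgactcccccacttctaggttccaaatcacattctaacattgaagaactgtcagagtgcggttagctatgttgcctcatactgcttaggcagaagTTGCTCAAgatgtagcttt

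TATAAA began 30 bases before the start of S100a8 and at base 1 after the start of S100a9, just past the stretch shown. On the minus strand of Mmp8 a match began 3 bases before the start and ran past the end of the stretch, so it is not in capitals. Of the 7 genes of the set with a RefSeq promoter, 4 held TATAAA in the 300 bases from 250 before to 50 after the start, as did 13.6% of 32851 promoters. TTNNGNAA was present in 5 of 7, namely S100a8, S100a9, Mmp8, Ngp and Fpr1, and in 40.7% of all promoters. GAGGAA, the core bound by the myeloid factor PU.1, was present in 3 of 7 and in 28.3% of all promoters. These matches describe the letters only and are not shown to be bound.

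S100a8 and S100a9 were low in all 3 PKM2 KO livers and varied widely among WT livers. S100a8 measured 0.207, 0.373 and 0.152 CPM in the knockouts (livers 1 to 3, the order used throughout) against 0.214, 3.58 and 0.947 CPM among the wild types (livers 1 to 3). WT 2 and WT 3 lay above every PKM2 KO liver, while WT 1 lay between PKM2 KO 1 and PKM2 KO 2, so the groups overlapped. The means were 0.244 ± 0.115 and 1.58 ± 1.77 CPM (SD, n = 3 each), which corresponds to a log2 fold change of -2.68 (SE 0.94). Adjusted over the 13058 genes tested, edgeR's quasi-likelihood p was 0.637.

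S100a9 measured 0.517, 0.342 and 0.304 CPM in the knockouts against 0.572, 5.35 and 1.11 CPM among the wild types. Every WT liver lay above every PKM2 KO liver, but by 16 counts in WT 1 against 15 in PKM2 KO 1 at the narrowest point. The log2 fold change was -2.60 (SE 0.84, edgeR adjusted p = 0.596). Without WT 2, S100a8 had a log2 fold change of -1.27 (edgeR adjusted p = 0.886) and S100a9 one of -1.13 (edgeR adjusted p = 0.848). Set against WT 3 alone, the WT liver without raised pancreatic transcripts, they were at -1.94 and -1.51.

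The proportions of the 2 calprotectin transcripts in the other livers could not be told apart from those in WT 2 at this depth. S100a8 made up 28.6%, 52.2% and 33.3% of the pair's counts in the knockouts and 27.3%, 40.1% and 46.1% among the wild types. The tightest of these shares, from the 287 counts of WT 2, had an exact 95% binomial interval of 34.4% to 46%, and the intervals of the other 5 livers all overlapped it. Those of WT 1 and PKM2 KO 2 were wide, at 10.7% to 50.2% and 30.6% to 73.2%, so the overlap does not show that the proportions were equal. Such intervals cover counting error only.

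Mmp8 and Mmp9 encode matrix metalloproteases that neutrophils carry in granules, the collagenase MMP8 and the gelatinase MMP9. Mmp8 had 0, 1 and 0 counts in the knockouts and 1, 27 and 3 among the wild types. WT 2 held 27 of the 31 WT counts, and WT 1 and PKM2 KO 2 each had 1 count, so these 2 livers cannot be told apart. The summed counts of 31 against 1 gave a ratio of 30.1, WT over PKM2 KO, with an exact 95% counting interval of 5.01 to 1220, which ignores the spread between mice. Mmp8 did not pass the filter on low counts. In the fit without that filter its edgeR adjusted p was 0.709.

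Mmp9 behaved differently from Mmp8 in that it was even among WT livers. It measured 0.345, 0.466 and 0.122 CPM in the knockouts against 0.858, 0.965 and 1.06 CPM among the wild types. All WT livers lay above all PKM2 KO livers, with means of 0.959 ± 0.0989 CPM in WT and 0.311 ± 0.175 CPM in PKM2 KO (SD, n = 3 each). The log2 fold change was -1.62 (SE 0.44, edgeR adjusted p = 0.566). It stayed between -2.04 and -1.23 under every alternative that tested it and was -1.62 without WT 2. Mmp9 is also made by macrophages and other cells.

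Ngp, which encodes a secondary granule protein of neutrophil precursors, was at the limit of detection. It had 0 counts in 5 livers and 2 counts in WT 3. A count of 0 over the 3 PKM2 KO libraries allows up to 0.0319 CPM, and no difference between genotypes was detectable at this depth.

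Fpr1 and Csf3r encode surface receptors of mature neutrophils, the receptor for bacterial and mitochondrial formyl peptides and the receptor for G-CSF. Fpr1 measured 2.27, 1.58 and 2.31 CPM in the knockouts against 3.43, 3.02 and 3.46 CPM among the wild types. It had no overlap between genotypes, with means of 2.06 ± 0.408 and 3.30 ± 0.248 CPM (SD, n = 3 each). The log2 fold change of -0.68 (SE 0.21, edgeR adjusted p = 0.583) was -0.74 without WT 2. Fpr1 has close paralogs, with which reads can be shared, although its deposited counts were whole numbers.

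Csf3r measured 1.93, 1.24 and 1.31 CPM in the knockouts against 1.57, 3.27 and 2.49 CPM among the wild types. WT 2 and WT 3 exceeded each knockout, whereas WT 1 lay below PKM2 KO 1. The log2 fold change was -0.72 (SE 0.32, edgeR adjusted p = 0.71) and -0.45 without WT 2.

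Hdc encodes histidine decarboxylase, the enzyme that makes histamine, and is used by mast cells and basophils as well as by neutrophils. It measured 1.45, 1.27 and 1.76 CPM in the knockouts against 1.21, 2.30 and 1.49 CPM among the wild types. The groups overlapped fully, and the log2 fold change of -0.16 (SE 0.30, edgeR adjusted p = 0.946) turned to 0.14 without WT 2. Of 14 mast cell and basophil markers, 3 passed the filter on low counts. The summed level of all 14, mostly Kit, was 5.72 to 8.93 CPM in PKM2 KO and 5.47 to 9.80 CPM in WT. The markers that did not pass had at most 11 counts in any liver. Of these, Ms4a2 and Mcpt1 were at 0 in all 6 livers, and the highest were Mcpt4 and Tpsb2 in PKM2 KO 1. Hnmt, which breaks histamine down, was at 29.3 to 30.6 CPM in PKM2 KO and 23.0 to 37.0 CPM in WT (log2 fold change 0.04, edgeR adjusted p = 0.981).

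**Figure D1:**
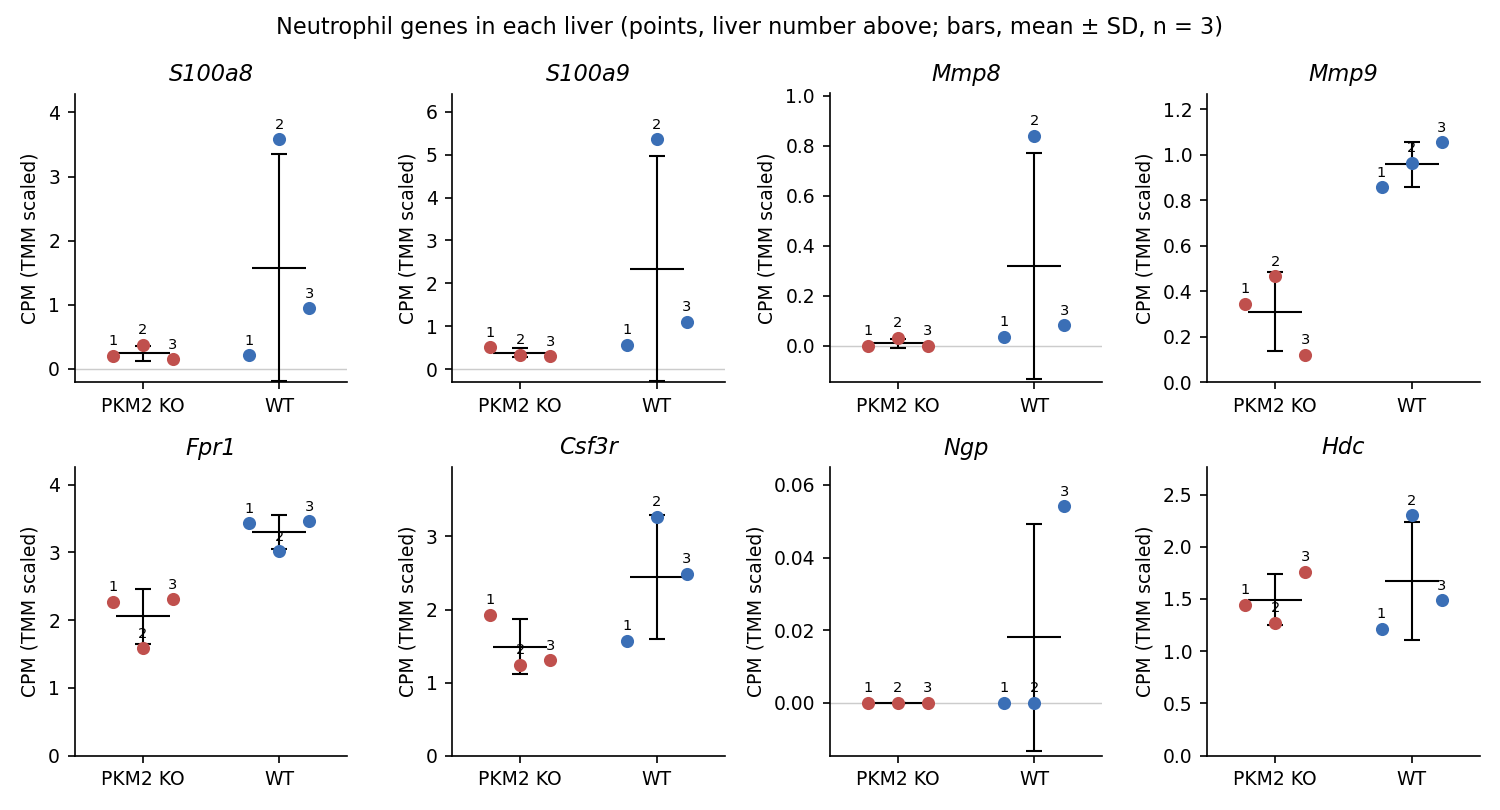
Level of each of the 8 genes in CPM on a linear axis, 1 panel per gene with its own scale. Points are livers with the liver number above, and bars are the mean ± SD over 3 livers. WT 2 stands far above the other livers for S100a8 (3.58 CPM), S100a9 (5.35 CPM) and Mmp8 (0.840 CPM), whereas the WT livers lie close together for Mmp9 and Fpr1. An SD larger than the mean takes a bar below 0.

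Counted together, the 6 genes that passed the filter on low counts all had negative fold changes, and 0 of them passed an adjusted p of 0.05 over all genes in edgeR's quasi-likelihood test, where 0.023% of 13058 genes did. DESeq2 also called 0 of 6, where it called 0.505% of all genes as lower, with S100a9 nearest (adjusted p = 0.0549). An unadjusted p under 0.05 with a negative fold change was reached by 4 of the 6 (S100a8, S100a9, Mmp9 and Fpr1) and by 4.37% of all tested genes. The genotypes did not overlap for 3 of the 6 (S100a9, Mmp9 and Fpr1), all lower in PKM2 KO, and for 6.27% of all tested genes in that direction. The median log2 fold change of the 6 was -1.17, beside -0.0119 over all tested genes, of which 52.4% were negative. Since these genes were chosen with earlier results of the same livers known, these counts describe the set and are no test of it. Each of the 6 reached the filter's level of 0.305 CPM in at least 1 PKM2 KO liver. In whole tissue, fewer neutrophils, less RNA per neutrophil and a different contribution of other cell types cannot be told apart.

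**Figure D2:**
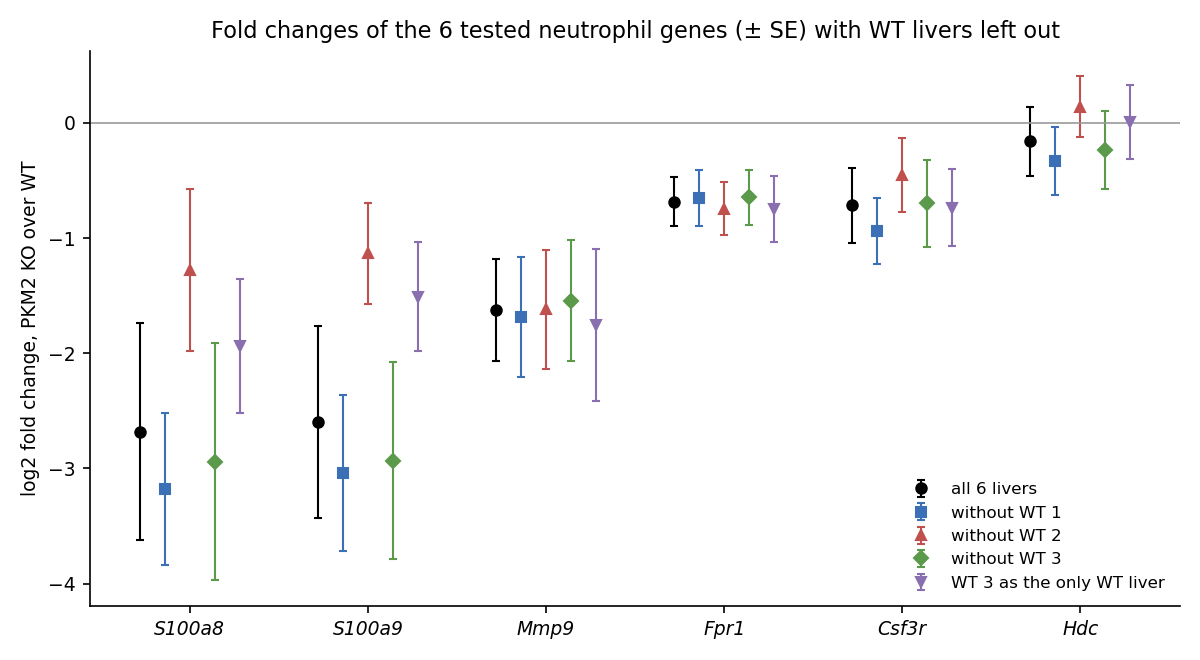
Log2 fold change of PKM2 KO over WT for the 6 tested genes, with the SE of edgeR's quasi-likelihood fit, for all 6 livers and with WT livers left out. Without WT 2, S100a8 moves from -2.68 to -1.27 and S100a9 from -2.60 to -1.13, while Mmp9 and Fpr1 keep about the same value in all 5 fits and Hdc lies near 0.

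Per length of exon, the order of the mean levels differed between genotypes. Levels were divided by the joined length of all exons annotated to each gene in GENCODE M21, in CPM per kilobase. That length, 6389 bases for Hdc, can exceed the length of any single transcript. The order between genes therefore depends on the annotation. In PKM2 KO, Fpr1 led at 1.55 ± 0.308, followed by S100a9 at 0.742 ± 0.217, Csf3r at 0.414 ± 0.105, S100a8 at 0.351 ± 0.166, Hdc at 0.234 ± 0.0388 and Mmp9 at 0.0878 ± 0.0494 CPM per kilobase (SD, n = 3). The values of Csf3r and S100a8, and of S100a8 and Hdc, overlapped between livers, whereas Mmp9 lay below Hdc in all 3. In WT, S100a9 had the highest mean, at 4.49 ± 5.02 CPM per kilobase, but Fpr1, at 2.5 ± 0.187, lay above S100a9 in WT 1 and WT 3. Mmp9 and Hdc, at 0.271 ± 0.028 and 0.261 ± 0.0886 CPM per kilobase, did not differ beyond their spread in WT, and Mmp8, at 0.132 ± 0.186, overlapped with both. The means of S100a8 and Csf3r in WT were 2.28 ± 2.55 and 0.677 ± 0.235 CPM per kilobase.

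The neutrophil transcripts did not all follow each other from liver to liver. Of the 3 WT livers, WT 2 was highest for 5 of the 8 genes and WT 3 for the other 3, Mmp9, Fpr1 and Ngp. The number of S100a9 counts per Csf3r count was 0.268, 0.275 and 0.233 in the knockouts and 0.364, 1.64 and 0.446 among the wild types. In WT 2 the exact 95% counting interval of this ratio was 1.28 to 2.11, above the intervals of the other 5 livers, the highest of which reached 0.657. Cxcr2, the receptor by which mature neutrophils follow CXC chemokines, measured 1.21, 1.09 and 1.76 CPM in the knockouts against 1.64, 1.49 and 2.27 CPM among the wild types, with no excess in WT 2 (log2 fold change -0.42, edgeR adjusted p = 0.806, and -0.21 without WT 3). S100a8 and S100a9 together made up 46.2% of the summed level of the 8 genes in WT 2 and 7.65% to 19.2% in the other livers.

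Granule genes of marrow precursors were near 0, which was also true in WT 2 apart from a few. Among primary granule genes, Ctsg and Ms4a3 had 0 counts in all 6 livers, Mpo (myeloperoxidase) was at 0 in all PKM2 KO livers and at most 0.081 CPM in WT, and Elane (neutrophil elastase) was at most 0.187 CPM. Prtn3, which encodes proteinase 3, was the exception, with 0.072, 4.58 and 0.487 CPM among the wild types and 0.034 to 0.395 CPM in the knockouts (log2 fold change -3.32, edgeR adjusted p = 0.686, and -0.79 without WT 2). Serpinb1a, an inhibitor of these proteases, was at 21.7, 23.5 and 8.60 CPM in PKM2 KO and 16.1, 6.85 and 1.49 CPM in WT, with overlap between genotypes. Among secondary granule genes, Camp was at most 0.036 CPM and Ltf (lactoferrin) at 0.498 CPM in WT 2 and at most 0.081 CPM elsewhere. Itgam, the integrin CD11b that neutrophils share with monocytes and macrophages, was at 1.55, 0.963 and 1.0 CPM in PKM2 KO and 1.75, 5.10 and 3.11 CPM in WT (log2 fold change -1.51, edgeR adjusted p = 0.566). The abundant Arg1 and Hp are chiefly hepatocyte genes in liver, so the sums of this list do not measure neutrophils. The marker Ly6g was not analysed here.

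Over 5 further lists of neutrophil genes (primary granule, secondary and tertiary granule, receptors, NADPH oxidase and others), 78 genes outside the set had a row, of which 38 stayed under 1 CPM in every liver. Of the 41 that were tested, 34 had a negative and 7 a positive fold change, with a median of -0.443. Over all tested genes, 52.4% were negative. In edgeR 0 of the 41 passed, where 0.023% of all tested genes did. An unadjusted edgeR p under 0.05 was reached by 10, all lower, and by 4.37% of all tested genes in that direction. DESeq2 called 1 of the 41, Il1rn, the interleukin-1 receptor antagonist, and called 0.505% of all tested genes as lower. The groups did not overlap for 8 of the 41, all lower in PKM2 KO, and for 6.27% of all tested genes in that direction. WT 2 was the highest liver for 23 of the 41 (56.1%), as for 23.0% of all tested genes. Without WT 2, 33 of 41 had a negative fold change, with a median of -0.35. Among receptors, Ptafr, for platelet-activating factor, was at 0.334 to 0.379 CPM in PKM2 KO and 0.541 to 0.679 CPM in WT (log2 fold change -0.75, edgeR adjusted p = 0.658), and the Fc receptor gene Fcgr4 reached 18 CPM in WT 2 against 3.13 to 4.89 CPM in the other 5 livers. All 6 subunit genes of the NADPH oxidase, the enzyme of the oxidative burst, had negative fold changes, with a median of -0.38. Cyba was at 5.0 to 6.41 CPM in PKM2 KO and 7.68 to 8.90 CPM in WT (log2 fold change -0.54, edgeR adjusted p = 0.566), and Ncf1 had a log2 fold change of -0.58. The oxidase is also present in macrophages.

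**Figure D3:**
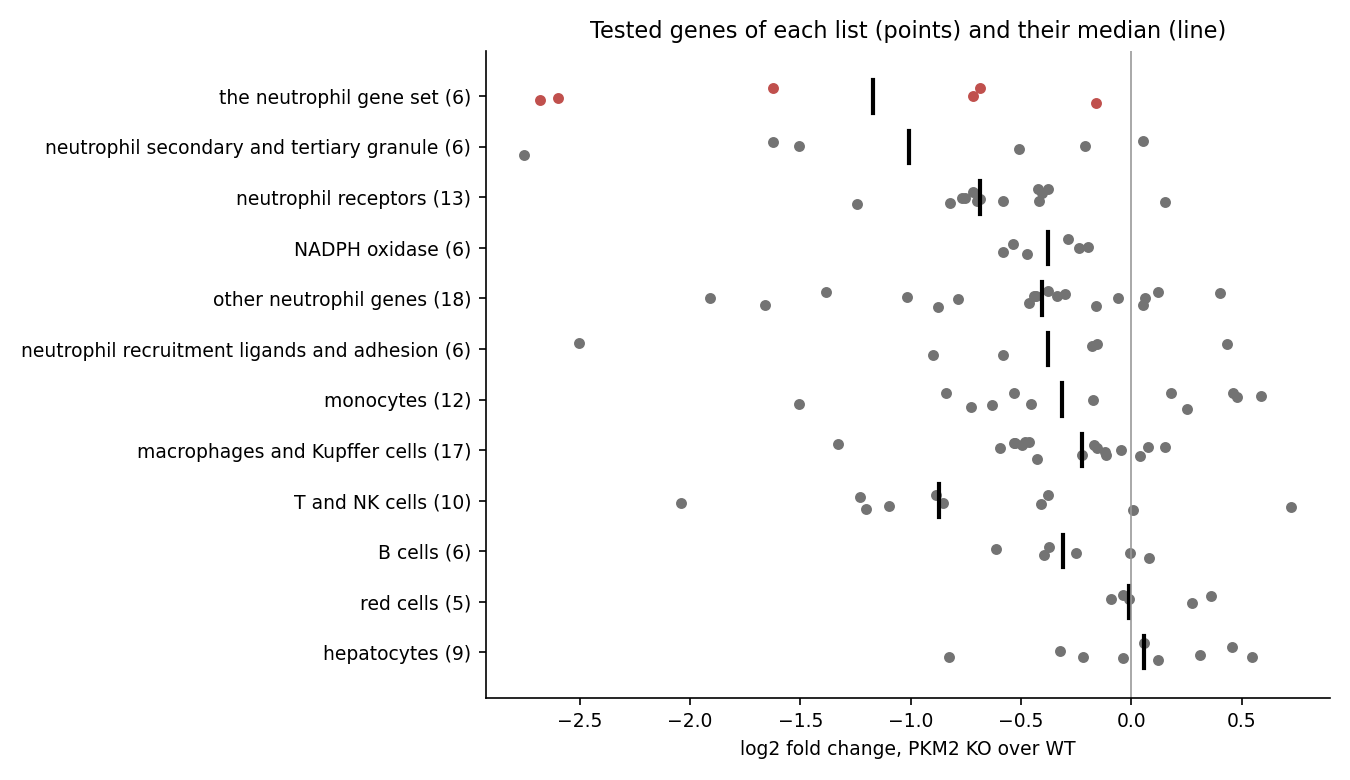
Log2 fold change of PKM2 KO over WT for the tested genes of 12 lists, with the number tested in brackets, 1 point per gene and a line at each list's median. The set of neutrophil genes has its median at -1.17, the other neutrophil lists shown between -1.01 and -0.38, and the red cell and hepatocyte lists near 0. Lower medians are not particular to neutrophil lists, with T and NK cells at -0.87. Monocytes and B cells are both at -0.31, and macrophages at -0.22. Without WT 2 the median was -0.32 for secondary and tertiary granule genes, -0.45 for receptors and -0.10 for recruitment genes, over the genes tested in that fit. Lists share some genes.

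Of 18 listed genes for signals and adhesion molecules that draw neutrophils into tissue, 6 passed the filter on low counts. The most abundant were Hc, at 710 to 934 CPM in PKM2 KO and 571 to 1120 CPM in WT, and Cxcl12, at 212 to 279 and 257 to 309 CPM. Icam1 was at 6.99 to 8.99 CPM in PKM2 KO and 8.25 to 17.6 CPM in WT, and Selp at 1.96 to 2.92 and 1.43 to 2.06 CPM. Many of the others were at or near 0. Csf3, which encodes G-CSF, and Csf2, Cxcl3 and Il17a had 0 counts in every liver, and Cxcl2, Cxcl5 and Il6 stayed at or below 0.218 CPM. Cxcl1, a ligand of Cxcr2, measured 3.20, 2.33 and 2.86 CPM in the knockouts against 3.97, 39.2 and 4.38 CPM among the wild types, so WT 2 was high for the ligand as for S100a8 and S100a9 (log2 fold change -2.50, edgeR adjusted p = 0.64, and -0.58 without WT 2). Vcam1, an adhesion molecule for leukocytes, was at 5.90 to 8.23 CPM in PKM2 KO and 8.22 to 21.7 CPM in WT (edgeR adjusted p = 0.668). Of 6 tested genes for receptors of the S100a8 and S100a9 proteins and their partners, 3 had a negative and 3 a positive fold change, with a median of -0.05 (0.04 without WT 1). The positive ones were Bsg (0.12), Cd36 (0.12) and Ly96 (0.04). Tlr4 was at 1.34 to 1.76 CPM in PKM2 KO and 1.37 to 2.0 CPM in WT. Its co-receptor gene Cd14 was at 1.65 to 2.52 and 2.71 to 4.47 CPM and its adaptor gene Myd88 at 11.6 to 13.3 and 16.4 to 29.0 CPM, both without overlap and both with an edgeR adjusted p above 0.5 (0.653 and 0.566).

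Levels in WT 2 were also set beside liver acute phase transcripts, which hepatocytes make in response to interleukin-6 and interleukin-1. Saa1, which encodes a serum amyloid protein, measured 25.7, 2320 and 355 CPM among the wild types against 27.5 to 54.2 CPM in the knockouts. Lcn2, which is both a secondary granule and an acute phase gene, measured 5.25, 161 and 22.2 CPM among the wild types against 6.15 to 13.8 CPM in the knockouts. For Mmp8 only the top place of WT 2 can be told, as WT 3 had 3 counts and WT 1 had 1. Among S100a8, S100a9, Lcn2, Saa1 and Cxcl1 the WT livers had the same order, WT 2, WT 3, WT 1. Most of the 20 listed acute phase genes had this order too. Orm1 and Apcs instead ran WT 2, WT 1, WT 3, and Il1rn was highest in WT 3. Amy2a5, a pancreatic amylase, also ran WT 2, WT 1, WT 3, with 1520, 4310 and 9.90 CPM among the wild types (livers 1 to 3). The part of the acute phase and pancreatic transcripts in the differences of the neutrophil genes was not tested.

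**Figure D4:**
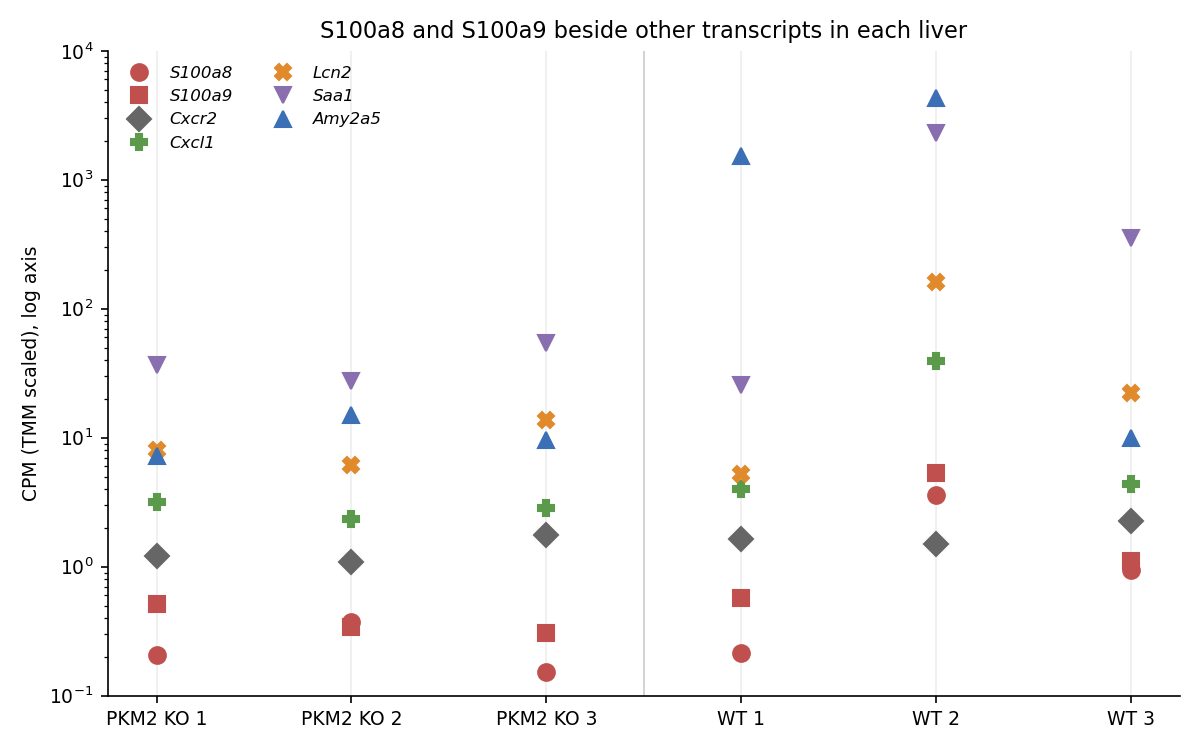
CPM on a log axis in each of the 6 livers for S100a8 and S100a9, the receptor gene Cxcr2, the chemokine gene Cxcl1, Lcn2, Saa1 and the pancreatic amylase gene Amy2a5. S100a8, S100a9, Cxcl1, Lcn2 and Saa1 are all highest in WT 2, Cxcr2 stays between 1.09 and 2.27 CPM, and Amy2a5 is high in WT 1 and WT 2.

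Markers of other blood and immune cells are set beside these values, and 0 of their genes passed in edgeR, where 0.023% of all tested genes did. A lower level with an unadjusted edgeR p under 0.05 was reached by 4.37% of all tested genes, and DESeq2 called 0.505% as lower. For 17 macrophage and Kupffer cell genes the median log2 fold change was -0.22, with 6 genes at an unadjusted p under 0.05, all lower, and 1 called by DESeq2 (C1qa). Their summed level was 526.4 to 591.2 CPM in PKM2 KO and 660.3 to 690.8 CPM in WT. For 12 monocyte genes the median was -0.31 with 2 such genes, for 10 T and NK cell genes -0.87 with 5, and for 6 B cell genes -0.31 with 1. These medians changed when single livers were left out, which could also change the genes that passed the filter. The T and NK list had 10 tested genes with all livers, 12 without PKM2 KO 1 and 13 without PKM2 KO 3. The B cell list had 6 with all livers and 7 without PKM2 KO 1. The medians of these 2 lists are thus not always of the same genes. With 1 liver left out the medians ran from -0.50 to -0.0038 for monocytes, from -0.72 to -0.36 for T and NK cells and from -0.54 to -0.07 for B cells. Those of monocytes and B cells were nearest 0 without WT 2 and farthest from it without WT 1, and that of T and NK cells was nearest 0 without PKM2 KO 3. DESeq2 called 0 in these 3 lists. Red cell genes, which follow the blood left in the tissue, had a median of -0.0097 (0.39 without WT 1), with a summed level of 602.1 to 1159 CPM in PKM2 KO and 574.4 to 1073 CPM in WT. WT 2 had the lowest red cell sum of all 6 livers. Eosinophil genes were nearly all near 0, and 1 of 9, Ear2, was tested. It was at 1.34 to 1.55 CPM in PKM2 KO and 2.22 to 2.80 CPM in WT (log2 fold change -0.76, edgeR adjusted p = 0.566).

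The S100 and metalloprotease families were examined as a whole. The 10 tested genes of the S100 list included the gene of an S100-binding protein, which is not a family member. Of the 10, S100a8 and S100a9 were the 2 with an unadjusted edgeR p under 0.05. Both were lower, as were 4.37% of all tested genes at this level. The abundant S100a1 and S100a10 had log2 fold changes of -0.20 and 0.07. Of 11 tested metalloprotease and TIMP genes, Mmp9 was the 1 with a negative fold change at an unadjusted p under 0.05. The 1 with a positive fold change was Mmp19, at 96.9 to 108 CPM in PKM2 KO and 62.9 to 85.2 CPM in WT (log2 fold change 0.39, edgeR adjusted p = 0.643).

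The genes whose profile over the 6 livers lay closest to the mean profile of the 6 tested neutrophil genes were Litaf, Ptpn22, Fmnl1, Osmr, Cxcl14, Ccl6, Fam47e and Fndc3b. Likeness was the Euclidean distance between log2 CPM values centred on each gene's mean, which ran from 0.306 for Litaf to 0.483 for Fndc3b, with a median of 1.79 over 12965 genes. The members themselves lay at 0.743 (Csf3r) to 1.91 (S100a8), farther from their own mean than these 8 genes. Litaf, which encodes an endosomal protein induced by lipopolysaccharide, measured 55.1 to 61.2 CPM in the knockouts against 66.8, 196 and 110 CPM among the wild types. Ptpn22, a phosphatase of blood cells, measured 0.425 to 0.517 CPM in the knockouts against 0.750, 1.71 and 0.893 CPM among the wild types, and Osmr, the receptor subunit for oncostatin M, measured 1.77 to 2.38 against 2.5, 6.35 and 5.19 CPM. For none of the 8 was the edgeR adjusted p below 0.5 with all livers (0.566 to 0.676), while that of Fndc3b was 0.0324 without WT 1.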

How the data were processed

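Polyadenylated RNA from 6 livers was sequenced from TruSeq libraries, per the labels' protocols. The authors deposited expected counts per gene, the estimates RSEM gives when it divides reads among transcripts. Per the submitters' processing notes, RSEM 1.2.12, Bowtie 1.0.1 and build mm9 were used. The annotation and the use of strand are not given in the sources used here. Of the 8 genes, Csf3r had deposited values that were not whole.

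Expected counts were rounded and fitted across all genes in R 4.3.3 with edgeR 4.0.16, using filterByExpr (10 counts in 3 libraries of median size, 13058 genes kept), TMM scaling, the quasi-likelihood F test with genotype as the only term and Benjamini-Hochberg adjustment at 0.05. Fold changes are PKM2 KO over WT. Their approximate SE is the size of the change over the root of the F statistic. Profiles used log2 CPM with a prior count of 2. DESeq2 1.42.0 was an alternative, beside other scalings and filters, unrounded values, a replicate block and livers left out. The pipeline was tested on simulated data. The most similar pair of libraries, PKM2 KO 2 and PKM2 KO 3, had a chi-square of 38.67 per gene, so none was a repeat.

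The members and lists were chosen with earlier results of these data known, the lists from general knowledge of mouse cells. Named genes are the 8 members, of each list the 2 with the smallest p and the 2 most abundant, any gene of the granule, receptor and recruitment lists, and the 8 genes nearest in profile among those with at least 10 counts on average. Other genes named, Tlr4, Ly96, Saa1, Orm1, Apcs, Ms4a2, Mcpt1, Mcpt4, Tpsb2 and those under the closing observations, were chosen after their values were seen. Plots were drawn with matplotlib 3.10.9.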

Additional observations from a re-analysis of the deposited data

How the results depend on the processing

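Under the 14 alternatives 0 of the neutrophil genes tested passed (8 without a filter, 3 with the strict filter and 6 in the others), and S100a8, S100a9, Mmp9, Fpr1 and Csf3r kept a negative fold change wherever they were tested. The log2 fold change of Hdc ran from -0.33 to 0.14 with single livers left out, turned to 0.14 without WT replicate 2 and to 0.011 with WT replicate 3 as the only WT liver, and the cause was not tested. The median of the tested set was -1.17, between -1.32 and -0.94 with single livers left out, and -0.69 with the strict filter (1 CPM in 3 libraries), which left 3 of the genes. The number of genes called among all genes was 3. It was 5 without a filter, 97 with DESeq2, 163 with WT replicate 3 as the only WT liver, a fit in which the lone WT library is assumed to vary like the PKM2 KO livers, and 3 to 51 with single livers left out, reaching 51 without WT replicate 1 and without WT replicate 3. Among the 172 tested genes of the other lists it was 0, where 0.023% of all tested genes were called. With DESeq2 it was 17 of 172, all lower, where 0.505% of all tested genes were called as lower. With single livers left out it was 0 to 16 (16 without WT replicate 3, where 51 of all genes were called), and the cause was not tested. Of the 17, 15 were pancreatic genes and the others C1qa and Il1rn, and all 16 were pancreatic. The median of secondary and tertiary granule genes, -1.01 over 6 tested genes, was -0.32 when WT 2 was left out. Without PKM2 KO 1 it was -1.69, but over 7 tested genes, so not for the same genes. Counts over the further neutrophil lists were repeated under the alternatives after the data were seen, with medians of -0.71 to -0.35. Same-numbered livers of the genotypes did not deviate together (correlations of -0.0915 to 0.0266). So few pairs cannot show whether such livers shared a litter or batch, which the sources used here do not give. With the replicate block 7 genes were called and 0 of the 6 neutrophil genes tested. The strict filter removed S100a8, S100a9 and Mmp9 as well as Mmp8 and Ngp, so depth limits what can be said of these 5 genes.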

Other observations

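Some transcripts of the lists stood apart in single livers beside those described above. They were chosen after their values were seen and no test was made. Cebpe, a C/EBP factor that drives secondary granule genes in precursors, was at 5.17 to 6.98 CPM in 5 livers and at 0.072 CPM in WT 1. Its level was about the same in WT 2 (5.17 CPM) as in PKM2 KO livers (5.31 to 5.59 CPM), although Ngp, Camp and other granule genes were near 0 in all of them. Marco, a scavenger receptor of macrophages, measured 2.20, 1.65 and 12.8 CPM in the knockouts against 26.9, 5.29 and 9.88 CPM among the wild types (livers 1 to 3 of each). S100g, which encodes a calcium-binding protein of the S100 family, was at 12.6 CPM in WT 2 and at most 0.322 CPM elsewhere.

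PKM2 KO 1 held low levels of mast cell protease transcripts, with Mcpt4 and Tpsb2 both at 0.379 CPM and Cpa3 at 0.241 CPM, where the other 5 livers had at most 0.156 CPM of any of them. It also had 5.41 CPM of Asprv1, an aspartic protease gene listed here for neutrophils and also known from skin, against 1.46 CPM in WT 2 and at most 0.135 CPM elsewhere. Its Hdc level, 1.45 CPM, lay between those of the other PKM2 KO livers.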
